A study of Mus musculus with 30 samples.

Results

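The fragments described here came from mt-Rnr2, the 16S rRNA of the mouse mitochondrion, which is 1 of 5642 gene names in the set of transcripts to which reads were matched. Members were chosen by sequence alone: every read of the 30 libraries whose whole sequence was identical, in sense, to a stretch of the annotated transcript (ENSMUST00000082390.1 of gene ENSMUSG00000064339.1) was counted by its 5' end and its length. The transcript is a single exon of 1582 nt at chrM:1094-2675 on the plus strand of GRCm38, and nucleotides (nt) are numbered from 1 at its 5' end. PANDORA-seq gave 22129 distinct fragments from 6405360 reads, which is 45.97% of the 48143 fragments of 15 to 45 nt that the rRNA could give, with 1474 different 5' ends and all 1582 nt covered. Traditional-seq gave 8451 distinct fragments from 386933 reads, or 17.6% of the possible fragments, with 1194 different 5' ends and 1557 nt covered. Its reads ended at 42 nt, so the 4617 possible fragments of 43 to 45 nt could not be seen. At 15 to 40 nt the shares were 43.8% in PANDORA-seq and 20.6% in traditional-seq, which was less deeply sequenced.

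The study compared small RNAs of the prefrontal cortex (labelled cortex) of mice at 6 months of age, either hemizygous for the 5xFAD transgenes (AD mice), which model familial Alzheimer's disease, or wild-type (WT) littermates, both sexes being used on a C57BL6/J background. In PANDORA-seq, RNA was treated before library making with AlkB, which removes certain methyl groups from bases, and with T4 polynucleotide kinase (T4PNK), which repairs the ends of RNA fragments. There were 8 WT and 8 AD libraries. In traditional-seq the RNA received neither enzyme, and there were 7 WT and 7 AD libraries. The labels number the samples of each group without naming the mouse of each, so p-values here measure the spread between these samples, and in tissue RNA a loss of cells of some type cannot be told apart from less RNA per cell.

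The 16S rRNA is the large-subunit rRNA of the mitochondrial ribosome, which makes the hydrophobic subunits of the respiratory chain. It is cut out of a long transcript of the mitochondrial genome in which tRNAs mark the cutting sites: mt-Tv (tRNA-Val) lies directly before its 5' end and mt-Tl1 (tRNA-Leu) directly after its 3' end. Brain has a high demand for oxidative phosphorylation, and mitochondrial rRNA is abundant in its RNA. Small RNAs that derive from rRNA are called rsRNAs, and a fragment with a 3' phosphate, a 5' hydroxyl or a methylated base is poorly captured by ligation-based libraries unless it is treated first.

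PANDORA-seq libraries held 54926300 to 105876000 reads and traditional-seq libraries 9370670 to 17053400, and mt-Rnr2 took 0.153% to 1.84% of the reads of a PANDORA-seq library and 0.144% to 0.347% of those of a traditional-seq library. Reads of 43 to 45 nt, summed over all RNAs, were rarer in AD libraries: they made up 15.5% ± 3.19 (SD, n = 8) of all PANDORA-seq reads in WT and 4.95% ± 2.90 (SD, n = 8) in AD, so results for 15 to 40 nt and for 43 to 45 nt are given apart. Traditional-seq libraries held no read over 42 nt. PANDORA-seq AD replicate 7 stood apart, with 12421 RPM (reads per 1000000 reads of the library) of mt-Rnr2 at 15 to 40 nt against at most 3815 in the other 7 AD libraries, and the results that moved most without it are given with and without it. Of neural miRNAs, Mir9-1 averaged 1893 RPM in PANDORA-seq and 36418 in traditional-seq. Mir124a-1 averaged 140 and 404 RPM, and the other neural miRNAs listed averaged at most 2.53 RPM in either protocol. How reads that match several of these miRNA genes were assigned is not given here, so the values do not show the level of each gene. Of markers of other tissues, Mir122 (liver) averaged 106 and 157 RPM, and the summed muscle miRNAs ran from 2.01 to 6.70 RPM in WT and from 2.84 to 192 in AD PANDORA-seq libraries. In traditional-seq they ran from 323 to 3309.8 RPM in WT and from 269.8 to 7913 in AD, mostly Mir1a-1. Microglial and myeloid miRNAs were near 0 in PANDORA-seq, at 0.874 to 1.73 RPM in WT and 0.726 to 1.66 in AD, and red cell miRNAs at 6.94 to 14.7 and 7.39 to 9.80. In traditional-seq these lists ran from 6.08 to 32.4 and 14.9 to 63.8 RPM and from 28.5 to 269.7 and 35.1 to 247 RPM, and oligodendrocyte miRNAs from 268 to 867 RPM in WT and 435 to 1488 in AD. Whether other cell types had a part in any result was not tested.

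The fragments on which the results turn are given first, as DNA letters 5' to 3' on the plus strand of GRCm38, read from the transcript and found unchanged in the deposited reads. A nested set with the same 3' end, at chrM:1234, carried the largest mean share of the fragments of 43 to 45 nt over the PANDORA-seq libraries of both genotypes. Capitals mark the bases that its shortest form, of 41 nt, lacks:
nt 101, 41 nt: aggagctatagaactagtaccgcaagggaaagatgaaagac
nt 100, 42 nt: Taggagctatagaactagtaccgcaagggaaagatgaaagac
nt 99, 43 nt: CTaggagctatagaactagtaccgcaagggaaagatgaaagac
nt 98, 44 nt: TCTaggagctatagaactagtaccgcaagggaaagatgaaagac
nt 97, 45 nt: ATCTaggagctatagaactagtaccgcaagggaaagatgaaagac
Shorter fragments that reached only to nt 136 (chrM:1229) from the same stretch also matter below, and here capitals mark the bases that lie before nt 98:
nt 98, 39 nt: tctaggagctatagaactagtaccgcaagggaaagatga
nt 97, 40 nt: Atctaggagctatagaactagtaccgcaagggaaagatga
nt 96, 41 nt: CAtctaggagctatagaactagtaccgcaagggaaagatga
Both protocols read many fragments from the first nucleotide of the rRNA (chrM:1094) but of different lengths, and capitals mark nt 1 to 20, the stretch that all of them hold:
nt 1, 20 nt: ACTAATCCTAGCCCTAGCCC
nt 1, 21 nt: ACTAATCCTAGCCCTAGCCCt
nt 1, 39 nt: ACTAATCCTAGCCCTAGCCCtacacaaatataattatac
nt 1, 44 nt: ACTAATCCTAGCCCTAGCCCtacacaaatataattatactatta
In traditional-seq a pair of fragments ended at nt 982 (chrM:2075), with capitals for the shorter of them:
nt 963, 20 nt: AGGGACTAGCATGAACGGCT
nt 956, 27 nt: cttaattAGGGACTAGCATGAACGGCT
The inner hot spots of PANDORA-seq were led by fragments at chrM:1837-1868 (nt 744), chrM:2345-2384 (nt 1252) and chrM:1779-1821 (nt 686), among others:
nt 744, 32 nt: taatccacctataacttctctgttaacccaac
nt 1252, 40 nt: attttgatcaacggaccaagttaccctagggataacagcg
nt 686, 43 nt: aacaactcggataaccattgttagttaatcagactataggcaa

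Coverage along the rRNA was uneven, and its peaks lay at different places for each protocol and length. At 15 to 40 nt in PANDORA-seq, 176 nt of the 1582 held 50% of the coverage of the WT group median, with the highest at nt 14 in both genotypes (270 RPM in WT and 449 in AD). Of the long fragments, only 63 nt held 50% of the WT coverage, which was highest at nt 109 (482 RPM), whereas in AD mice the highest nucleotide was nt 1352 (95.0 RPM). In traditional-seq 28 nt held 50% of the coverage in either genotype, and the highest nucleotide was nt 4 in WT (924 RPM) and nt 967 in AD (1130 RPM).

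**Figure D1:**
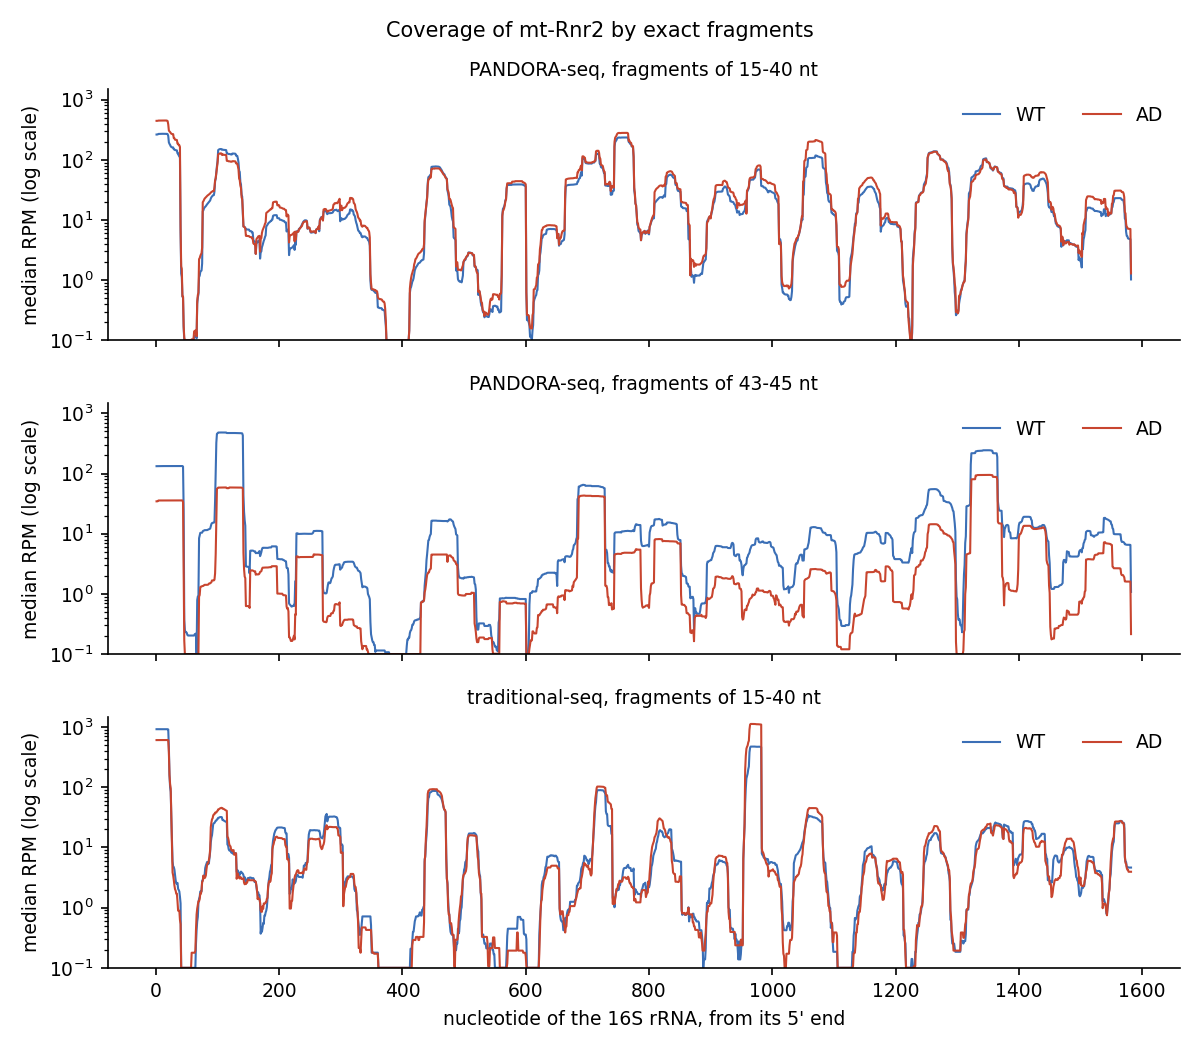
Coverage of mt-Rnr2 by fragments along its 1582 nt, as the group median in RPM (log axis) against the position in nt. Values under 0.1, those of uncovered nucleotides included, are drawn at 0.1. Panels are PANDORA-seq at 15 to 40 nt, PANDORA-seq at 43 to 45 nt and traditional-seq at 15 to 40 nt, WT and AD as separate lines. The long PANDORA-seq fragments peak at nt 109 in WT (482 RPM) and at nt 1352 in AD (95.0 RPM), and traditional-seq has its peaks near nt 4 and nt 967.

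The rsRNAs of 15 to 40 nt in PANDORA-seq had 8 leading 5' ends that together held 41.3% ± 6.63 (SD, n = 16) of the reads of this length. They were taken in descending order of their mean share over all 16 libraries, at least 5 nt apart. The first was the 5' end of the rRNA itself, nt 1, with a share of 18.3% ± 7.91 (SD, n = 16) and a leading fragment of 39 nt. The second, nt 744, held 7.05% ± 3.79 and was led by the fragment of 32 nt printed above. Others included nt 1252 (4.08%, leading fragment to nt 1291), nt 1058 (2.64%, to nt 1086), nt 1052 (2.32%, to nt 1081), nt 692 (2.31%, to nt 719) and nt 101 (2.11%, to nt 140). The quietest window of 100 nt was nt 301 to 400, which held 0.426% of the 5' ends, against 23.1% ± 7.08 for nt 1 to 100, 13.8% for nt 701 to 800 and 10.8% for nt 1001 to 1100.

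Long fragments, of 43 to 45 nt, had 6 leading 5' ends that held 47.2% ± 10.6 (SD, n = 16) of the reads. Most used was nt 98 with 12.97% ± 8.68, and nt 1 held 11.4% ± 6.75. Others included nt 686 (8.13%, leading fragment to nt 728), nt 1330 (3.88%, to nt 1372) and nt 1400 (2.33%, to nt 1444). At nt 98 a single length dominated, since the fragment of 44 nt made up 92.0% of the long reads that started there. Counted by their 3' end instead, 26.03% ± 14.4 (SD, n = 16) of the long reads ended where this fragment ends, and among other 3' ends nt 728 held 12.4% and nt 44 9.42%. The 3' end of the 44-nt fragment also led the fragments of 41 to 42 nt with 35.8% ± 16.2.

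In traditional-seq the 8 leading 5' ends held 57.8% ± 12.98 (SD, n = 14) of the mt-Rnr2 reads, and only nt 1 was also among the 8 of PANDORA-seq. Position nt 1 held 41.8% ± 21.3, led by a fragment of 21 nt, and was followed by nt 963 (7.71% ± 5.51) and nt 956 (4.26%), whose leading fragments both ended at nt 982. The remaining leading starts were nt 441 (1.78%), nt 713 (0.822%), nt 1376 (0.519%), nt 1407 (0.450%) and nt 89 (0.425%). Reads ending at nt 982 made up 27.6% ± 19.4 of all those of 15 to 40 nt.

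The reads of a traditional-seq library were carried mainly by these outer and inner ends, in changing proportion. Reads that started at nt 1 and reads that ended at nt 982 together held 57.4% to 78.6% (median 70.1%) of the mt-Rnr2 reads of each of the 14 libraries. In 8 libraries (5 WT and 3 AD) more reads started at nt 1, with at least 735 RPM there and at most 615 RPM ending at nt 982. In the other 6 (2 WT and 4 AD) more reads ended at nt 982, with at least 1097 RPM there and at most 609 RPM starting at nt 1. Both kinds of library occurred in both genotypes, so the level at either end overlapped between WT and AD mice. In PANDORA-seq the end at nt 982 was nearly empty, with 0.664 RPM on average in WT and 0.712 in AD, but the nucleotide before it was used: reads ending at nt 981 had a lowest, median and highest level of 6.59, 27.5 and 80.1 RPM in WT and 11.8, 30.9 and 328 RPM in AD, against traditional-seq medians of 2.96 and 3.26.

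Which 16S fragments differed between the protocols was asked at 15 to 40 nt over all 30 libraries, with genotype as a covariate. The protocols also differed in depth and in longest read, from which the part of the enzymes cannot be told apart. Of 606 5' ends of mt-Rnr2 that passed the count filter, 361 (59.6%) were called higher and 92 (15.2%) lower in PANDORA-seq by edgeR's quasi-likelihood test, a call being an adjusted p under 0.05 with more than a 2-fold difference. Over the 7918 5' ends of all RNAs tested, 54.2% were called higher and 26.8% lower, and the median log2 fold change was 1.63 for mt-Rnr2 and 1.39 for all. Scaled by library size in place of trimmed means (TMM), the calls for mt-Rnr2 were 308 higher and 138 lower. Libraries of the protocols may share a mouse, which the labels do not state.

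The 8 leading starts of PANDORA-seq were chosen by their share in its libraries, so their differences between the protocols are a description, with no test. Position nt 744 had a lowest, median and highest level of 100, 134 and 239 RPM in WT and 53.6, 151 and 232 RPM in AD PANDORA-seq libraries, and did not exceed 0.858 RPM in any traditional-seq library. Its log2 fold change between protocols was 9.80. Those at nt 692, 1252, 101, 1058 and 1052 had log2 fold changes of 7.62, 6.67, 4.92, 4.78 and 4.38, and by library size the lowest of these values was 3.70.

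The 5' end of the rRNA went the other way. It had a lowest, median and highest level of 152, 263 and 640 RPM in WT and 359, 444 and 740 RPM in AD PANDORA-seq libraries at 15 to 40 nt, against 356, 924 and 1440 RPM in WT and 379, 609 and 1478 RPM in AD traditional-seq libraries. The ranges overlapped, and the log2 fold change was -0.68, or -1.13 scaled by library size. The starts that led traditional-seq were likewise chosen by their share in its libraries. Their log2 fold changes were -8.44 at nt 1376, -5.33 at nt 956, -4.75 at nt 713, -3.29 at nt 963, -2.66 at nt 89, -0.81 at nt 441 and -0.52 at nt 1407.

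The length of the fragment from nt 1 also differed. The fragment of 20 nt had medians of 387 RPM in WT and 247 RPM in AD traditional-seq libraries, and that of 21 nt 324 and 243 RPM. In PANDORA-seq the fragment of 20 nt had a lowest, median and highest level of 40.7, 52.9 and 122 RPM in WT and 42.6, 111 and 176 RPM in AD. The fragment of 39 nt, by contrast, reached 39.2, 98.6 and 397 RPM in WT and 99.7, 149 and 231 RPM in AD PANDORA-seq libraries, while in traditional-seq it averaged 0.227 RPM in WT.

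Summed over the rRNA, mt-Rnr2 reads of 15 to 40 nt had a log2 fold change of 1.37 (SE 0.23, edgeR adjusted p = 1.57e-06) between protocols under TMM scaling, beside a median of 1.17 over all RNAs tested. By library size the value was 0.24 (adjusted p = 0.389) beside a median of 0.04, so the summed level was not called on that scale. The call was also lost without AD replicate 7, where the TMM value of 0.90 was under 2-fold (adjusted p = 1.71e-05), and when divided by all reads of 15 to 40 nt (0.50, adjusted p = 0.0735). The effect of genotype did not differ detectably between the protocols (interaction log2 fold change 0.50, edgeR adjusted p = 0.9997), and 0 of 1055 RNAs were called for it by edgeR's quasi-likelihood test.

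The next question was whether the 16S fragments differed between AD and WT mice, and the answer depended on fragment length. In PANDORA-seq, mt-Rnr2 reads of 43 to 45 nt had a lowest, median and highest level of 752, 1228 and 2788 RPM in WT and 49.0, 340 and 837 RPM in AD mice. Of the 8 AD libraries, 7 lay below the lowest WT library. The difference of the means of log2 RPM was -2.21, or 4.63-fold lower in AD (two-sided exact permutation test over 12870 arrangements, p = 0.000311, adjusted p = 0.00114 over the 11 measures tested this way). In the edgeR fit over all RNAs the log2 fold change was -1.81 (SE 0.40, adjusted p = 0.0033), and mt-Rnr2 was called lower together with 62.4% of the 370 RNAs tested at this length, whose median was -1.80, while 0% were called higher.

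Summed by length class, shorter reads of the rRNA were not called. Reads of 15 to 40 nt had a lowest, median and highest level of 1151, 1837 and 3361 RPM in WT and 1181, 2049 and 12421 RPM in AD PANDORA-seq libraries. Only AD replicates 4 (3815 RPM) and 7 lay above the WT range, and the difference in log2 RPM was 0.40 (exact permutation test, p = 0.385, adjusted p = 0.706). The edgeR value was 0.92 (SE 0.40, adjusted p = 0.125), beside a median of 0.33 over the RNAs tested at this length, of which 2.97% were called higher and 0.0927% lower. Without AD replicate 7 the difference in log2 RPM was 0.0827 and the edgeR value 0.39 (adjusted p = 0.331). Reads of 41 to 42 nt had levels of 397, 541 and 1949 RPM in WT and 300, 578 and 5125 RPM in AD, with an edgeR log2 fold change of 0.63 (adjusted p = 0.45), which turned to -0.24 without AD replicate 7 (adjusted p = 0.675). In traditional-seq, reads of 15 to 40 nt had levels of 1439, 2166 and 3460 RPM in WT and 1556, 2442 and 2988 RPM in AD, which overlapped fully (log2 fold change 0.07, edgeR adjusted p = 0.999; difference in log2 RPM 0.03, exact permutation test over 3432 arrangements, p = 0.878).

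**Figure D2:**
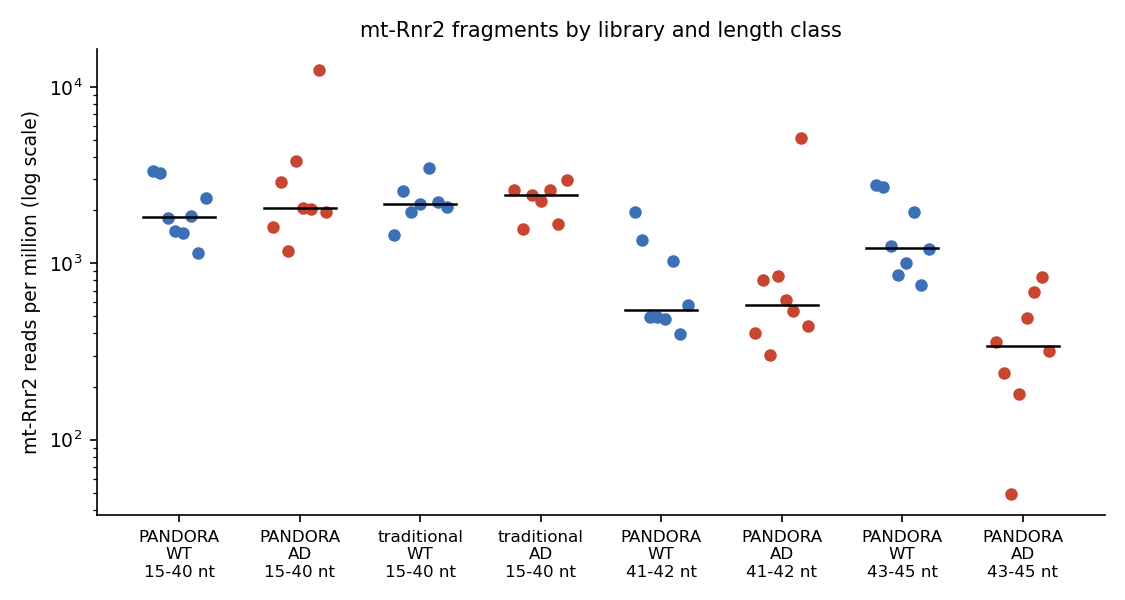
Level of mt-Rnr2 in RPM in each library, by fragment length class, genotype and protocol; each point is a library and the black line is the group median. At 43 to 45 nt the PANDORA-seq AD libraries lie between 49.0 and 837 RPM and the WT libraries between 752 and 2788, while the groups overlap at 15 to 40 nt in both protocols.

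The make-up of the mt-Rnr2 reads by length separated the genotypes fully, as did that of all reads of the library, of which 43 to 45 nt made up at least 11.2% in WT and at most 10.7% in AD. Fragments of 43 to 45 nt were 29.1% to 40.4% (median 34.1%) of the mt-Rnr2 reads in WT and 3.20% to 21.1% (median 8.91%) in AD PANDORA-seq libraries, a difference of -23.9 percentage points (exact permutation test, p = 0.000155, the smallest this design allows, adjusted p = 0.000855). As a share of all reads of 43 to 45 nt in the library, however, mt-Rnr2 stood at 0.980% ± 0.403 (SD, n = 8) in WT and 0.885% ± 0.775 (SD, n = 8) in AD (exact permutation test, p = 0.804, adjusted p = 0.970). The highest of these AD values, 2.74%, was that of replicate 7. Without that library the difference in this share was -0.36 percentage points (exact permutation test, p = 0.048, adjusted p = 0.106). The part of the library's length profile in the lower level of long mt-Rnr2 reads cannot be told apart from a change of the rRNA's long fragments.

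Length by length, the ratio of the AD median to the WT median was 1.18 at 41 nt, 0.618 at 42 nt, 0.526 at 43 nt, 0.140 at 44 nt and 0.103 at 45 nt for mt-Rnr2. For all other reads the ratios were 0.934, 0.856, 0.459, 0.211 and 0.215. At 20 nt the ratio was 1.95 for mt-Rnr2 against 1.16 for other reads, and the fragment of this length from nt 1 overlapped between the genotypes and was not called (log2 fold change 0.92, edgeR adjusted p = 0.159). In traditional-seq the ratio of mt-Rnr2 was 3.85 at 27 nt, the length of the fragment of nt 956 to 982, where the other reads had 1.55. That fragment overlapped between the genotypes, with 10.4, 38.95 and 254.8 RPM in WT and 9.95, 155 and 211 RPM in AD (log2 fold change 0.48, edgeR adjusted p = 0.9997).

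**Figure D3:**
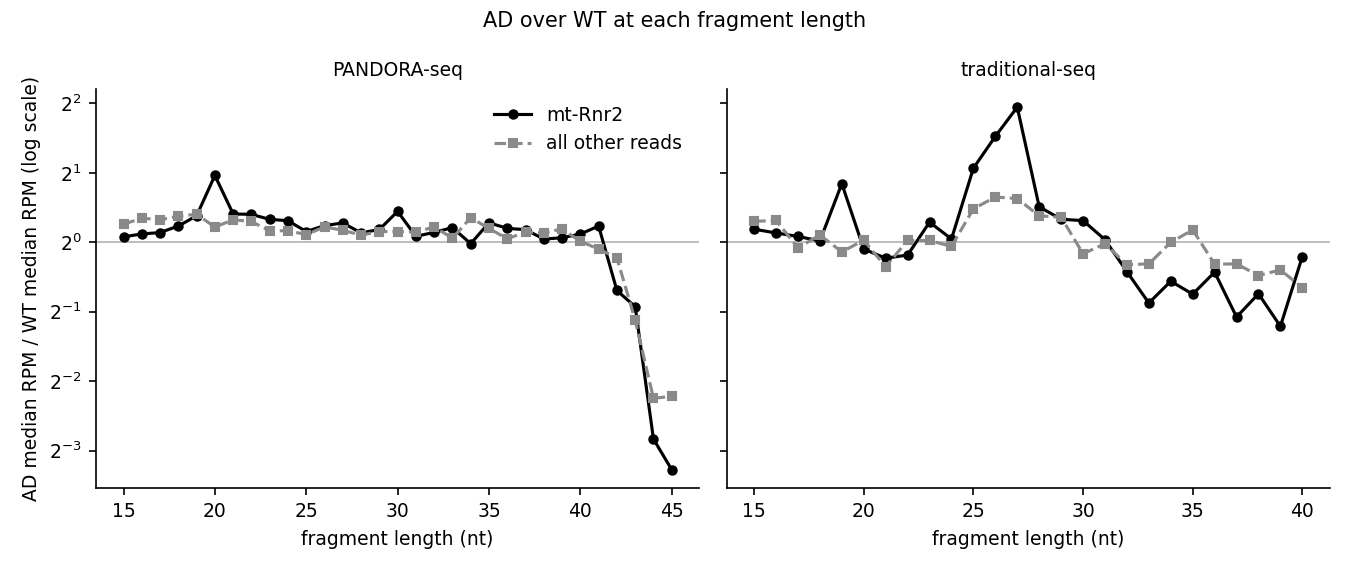
Ratio of the AD median to the WT median in RPM at each fragment length in nt, for mt-Rnr2 (black) and all other reads (grey), in PANDORA-seq and traditional-seq panels. In PANDORA-seq both lines drop from 43 nt on, to 0.103 for mt-Rnr2 and 0.215 for other reads at 45 nt.

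Of 2055 distinct mt-Rnr2 sequences that passed the count filter in PANDORA-seq, 158 (7.69%) were called lower and 3 (0.146%) higher in AD mice, against 4.51% and 0.154% of all 23320 sequences tested. At 43 to 45 nt, 150 of 271 (55.4%) were called lower and 0 higher (0 also at an unadjusted p under 0.05), against 44.6% and 0% of all 2116 sequences of this length. The median log2 fold change there was -2.21 for mt-Rnr2 and -1.998 for all. The share called lower rose with each added nucleotide, from 0.962% at 41 nt and 2.63% at 42 nt to 23.1% at 43 nt, 62.2% at 44 nt and 90.9% at 45 nt, and it did so over all RNAs too (1.26%, 4.55%, 17.3%, 50.8% and 76.0%). Divided by all reads of the same length in nt, in place of all reads of the library, 10.7% of the 271 were still called lower and 1.85% higher, against 13.99% and 3.31% over all RNAs.

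The nested fragments that share the 3' end at chrM:1234 gave a ladder in which the gap between the genotypes widened with each nucleotide added at the 5' end. The fragment of 41 nt had a lowest, median and highest level of 93.3, 184 and 430 RPM in WT and 29.7, 135 and 880 RPM in AD, overlapping ranges with a log2 fold change of 0.04, or -0.76 without AD replicate 7 (edgeR adjusted p = 0.428). That of 42 nt had 49.3, 76.1 and 231 RPM in WT and 3.42, 45.6 and 82.1 RPM in AD (log2 fold change -1.13, edgeR adjusted p = 0.20). Neither of these was called.

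The fragment of 43 nt had levels of 93.6, 126 and 377 RPM in WT and 1.98, 37.7 and 101 RPM in AD (-1.93, edgeR adjusted p = 0.035). The fragment of 44 nt from nt 98, the most abundant long fragment of the rRNA in WT mice, had 160, 198.5 and 551 RPM in WT and 1.58, 11.1 and 84.4 RPM in AD (-3.23, adjusted p = 0.0029). The fragment of 45 nt had 45.2, 63.8 and 141.6 RPM in WT and 0.382, 2.33 and 17.9 RPM in AD (-4.53, adjusted p = 0.000149). At 44 and 45 nt every AD library lay below every WT library. Over all RNAs, 50.8% of sequences of 44 nt and 76.0% of those of 45 nt were called lower. The share of 43 to 45 nt in all reads separated the genotypes too (at least 11.2% in WT, at most 10.7% in AD). How many other sequences separated as fully is not given here. Divided by all reads of the same length, the log2 fold changes of the nested fragments of 43, 44 and 45 nt were -1.07 (not called), -1.65 (adjusted p = 0.033) and -2.89 (adjusted p = 0.0027). The fragments of 44 and 45 nt thus remained lower beyond the other reads of their length. Without AD replicate 7 the log2 fold change at 43 nt was -1.90 with an adjusted p of 0.055, so it was no longer called.

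**Figure D4:**
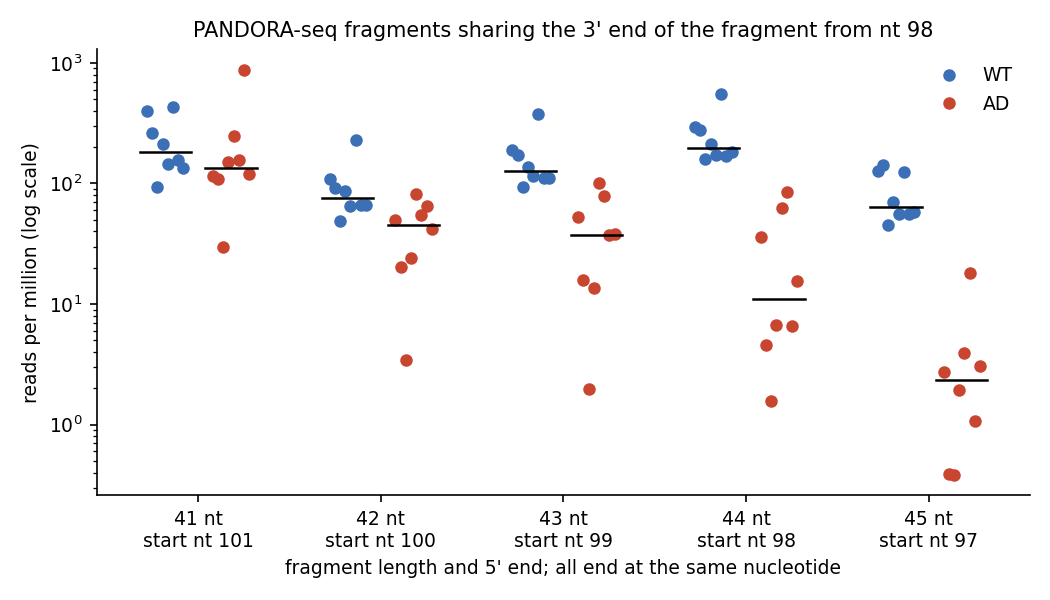
Level in RPM (log axis) of the 5 mt-Rnr2 fragments of 41 to 45 nt that share a 3' end, in each PANDORA-seq library; points are libraries and lines are group medians. The medians of WT and AD are 184 and 135 RPM at 41 nt, 198.5 and 11.1 RPM at 44 nt and 63.8 and 2.33 RPM at 45 nt.

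All reads of up to 45 nt with both ends within 2 nt of those of the 44-nt fragment were summed as a family, those under 43 nt included. The study had reported this stretch as reduced in AD mice from these same PANDORA-seq libraries. The p-values of the family are therefore not independent of its choice and describe its size in these data. They had a lowest, median and highest level of 417, 538 and 1382 RPM in WT and 8.28, 115.6 and 283 RPM in AD, with no overlap, a difference in log2 RPM of -2.83 and thus a level 7.10-fold lower in the AD group (p = 0.000155 by exact permutation test, adjusted p = 0.000855). The difference was -1.004 when the whole family was divided by all reads of 43 to 45 nt (exact permutation test, p = 0.00979, adjusted p = 0.0359). Its reads of 43 to 45 nt alone also took a smaller share of the rRNA's own long reads, from 24.0% to 57.8% (median 36.4%) in WT against 5.57% to 37.3% (median 16.4%) in AD, a difference of -20.3 percentage points with overlapping groups (exact permutation test, p = 0.0073, adjusted p = 0.0201). The family thus lost ground within the long fragments of mt-Rnr2. In traditional-seq, reads ending at its 3' end averaged 0.095 RPM in WT and 0.028 in AD.

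Some shorter fragments of the same stretch that ended at nt 136 were also lower in AD mice, although the ratio of medians for all other reads was 1.14 at 39 nt, 1.01 at 40 nt and 0.934 at 41 nt. Of the 7 distinct sequences that ended there and passed the filter, all of 36 to 42 nt, the 4 of 39 to 42 nt were all called lower, with a median log2 fold change of -2.26, whereas of the 451 other mt-Rnr2 sequences of 39 to 42 nt 3 were called lower and the median was -0.10. This 3' end was chosen after its values were seen, so the counts are a description. The fragment of 39 nt from nt 98 had a lowest, median and highest level of 2.46, 3.98 and 6.78 RPM in WT and 0.0364, 0.745 and 1.79 RPM in AD (log2 fold change -2.39, SE 0.45, edgeR adjusted p = 0.0018). The fragment of 40 nt from nt 97 had 0.776, 1.14 and 2.10 RPM in WT and 0.109, 0.233 and 0.631 RPM in AD (-2.12, adjusted p = 0.00037). The fragment of 41 nt from nt 96 had 3.08, 5.40 and 8.69 RPM in WT and 0.364, 1.31 and 2.52 RPM in AD (-2.04, adjusted p = 0.0010).

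In each of these 3 fragments all 8 AD libraries lay below the lowest WT library, at levels of a few RPM. In the remaining called fragment with this end, of 42 nt from nt 95, 6 AD libraries did so. Its WT levels ran from 0.189 to 6.83 RPM. How many other sequences separated as fully is not given here. The log2 fold changes of the 3 fragments moved little when divided by all reads of the same length (-2.49, -2.10 and -1.98, all called lower). The same held without AD replicate 7 (-2.32, -2.06 and -2.06). Fragments with the same 3' end that started further in were not called: that of 38 nt from nt 99 had a log2 fold change of -1.39 (adjusted p = 0.056), that of 37 nt -0.73 and that of 36 nt from nt 101 0.01 (-0.50 without AD replicate 7).

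Below 43 nt few other fragments were called. At 15 to 40 nt 4 of 1566 mt-Rnr2 sequences (0.255%) were lower and 3 (0.192%) higher, against 0.266% and 0.187% of all RNAs, so both shares were close to the background. Besides the fragments of nt 97 to 136 and 98 to 136, the lower ones were nt 98 to 129 (-1.63) and nt 894 to 933 (-1.61). The higher ones were nt 4 to 34 (2.50), nt 908 to 923 (1.95) and nt 963 to 990 (1.27), of which the first 2 were not called without AD replicate 7 (1.39 and 1.40). Divided by all reads of the same length, none of these 3 was called (adjusted p = 0.175, 0.294 and 0.219), nor were nt 98 to 129 (adjusted p = 0.111) and nt 894 to 933 (adjusted p = 0.143). At 41 to 42 nt 4 of 218 (1.83%) were lower and 0 higher (1 at an unadjusted p under 0.05), against 2.85% and 0% of all RNAs, and the 2 outside nt 96 to 136 and nt 95 to 136 were nt 1238 to 1279 (-2.39) and nt 1245 to 1286 (-1.50), the latter not called when divided by all reads of the same length (adjusted p = 0.345).

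By 5' end, 127 of the 219 positions of mt-Rnr2 tested at 43 to 45 nt (58.0%) were called lower in AD mice and 0 higher (0 at an unadjusted p under 0.05), against 48.5% and 0% of all 1825 positions of this length. The median log2 fold change was -1.99 for mt-Rnr2 and -1.87 for all, and 212 of the 219 lay below 0. The calls were spread over the rRNA, with 20 of 33 positions lower in nt 1 to 200, 3 of 6 in nt 201 to 400, 10 of 15 in nt 401 to 600, 15 of 28 in nt 601 to 800, 18 of 31 in nt 801 to 1000, 14 of 25 in nt 1001 to 1200 and 43 of 57 in nt 1201 to 1400. In nt 1401 to 1582 only 4 of 24 (16.7%) were called.

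The leading starts of the long fragments differed among themselves. Position nt 98 had a lowest, median and highest level of 178, 218 and 579 RPM in WT and 1.75, 13.03 and 90.1 RPM in AD, with no overlap. The log2 fold change was -3.05 (edgeR adjusted p = 0.0034), beside a median of -1.87 over all positions of this length. On the scale of all reads of 43 to 45 nt it was -1.86 (adjusted p = 0.020), and without AD replicate 7 it was -2.89, both called lower. Position nt 1 had 50.5, 133 and 356 RPM in WT and 4.95, 34.5 and 113 RPM in AD (-1.77, adjusted p = 0.035), a call that was lost without AD replicate 7 (-1.65, adjusted p = 0.063) and when divided by all reads of 43 to 45 nt (-0.38).

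The starts at nt 686, 1330 and 1400 were not called. Position nt 686 had 13.4, 21.9 and 333 RPM in WT and 6.21, 27.6 and 215 RPM in AD (-0.66). Position nt 1330 gave -0.54 and that at nt 1400 0.99. WT replicates 1 and 2 were high at these starts, with 333 and 270 RPM at nt 686 and 124 and 123 RPM at nt 1330. At nt 1400 they held 24.3 and 28.1 RPM. The WT and AD medians were 11.6 and 11.1 RPM at nt 1330 and 2.62 and 5.47 RPM at nt 1400. Without AD replicate 7, but with these WT libraries kept, the log2 fold changes at nt 686, 1330 and 1400 were -1.45, -1.42 and -0.11, none of them called. Divided by all reads of 43 to 45 nt, these 3 came to 1.43, 1.57 and 3.20, of which nt 1400 was called higher (adjusted p = 0.0495). Among the fragments that share the end at nt 728, that of 45 nt was nevertheless lower, with 15.0, 28.3 and 566 RPM in WT and 1.88, 5.84 and 17.95 RPM in AD (-4.46, adjusted p = 0.0012), a call that was lost when divided by all reads of the same length (-2.53, adjusted p = 0.062), while the 43-nt fragment with the same end was not called (-0.72, or -1.64 without AD replicate 7).

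The weight of the long fragments accordingly lay further along the rRNA in AD mice. Nucleotides 1 to 100 held 52.1% ± 12.4 (SD, n = 8) of the 5' ends of 43 to 45 nt in WT and 31.2% ± 15.3 (SD, n = 8) in AD, whereas nt 1301 to 1400 held 17.6% ± 3.13 and 32.3% ± 9.33. These windows were not tested, and they mix fragment lengths. The leading long fragment was of 44 nt at nt 98 and nt 1, of 43 nt at nt 1330 and of 45 nt at nt 1400. For all other reads the ratio of the AD to the WT median was 0.459 at 43 nt, 0.211 at 44 nt and 0.215 at 45 nt. The part of fragment length in this shift was not tested. The smallest adjusted p among the long 5' ends was that of nt 96, with 11.6, 19.9 and 29.2 RPM in WT and 0.182, 0.714 and 3.22 RPM in AD (-4.19, edgeR adjusted p = 3.45e-05). Divided by all reads of 43 to 45 nt, 31 of the 219 positions (14.2%) were called lower, all of them among the 127, and 4 (1.83%) higher, against 15.2% and 5.37% over all RNAs. The starts at nt 96 (-2.87) and nt 97 (-3.08) again had the smallest adjusted p.

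**Figure D5:**
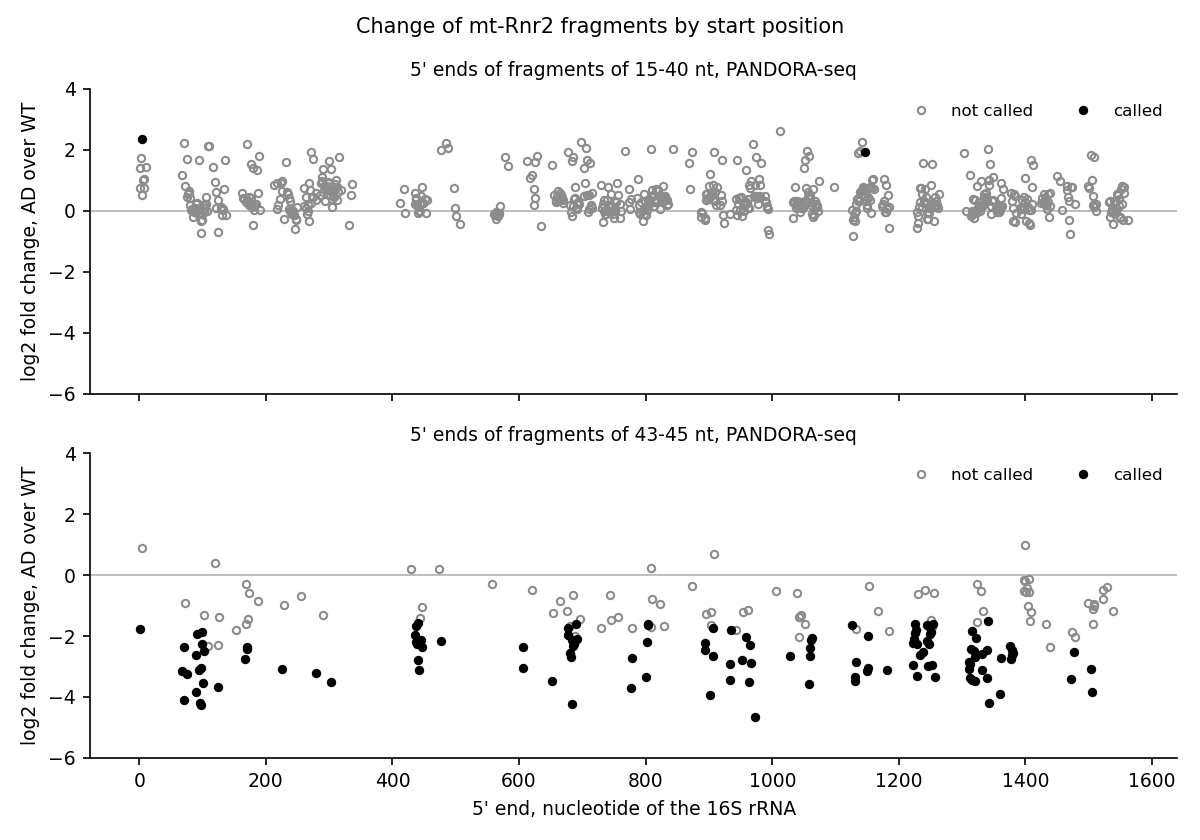
Log2 fold change of AD over WT mice at each tested 5' end of mt-Rnr2 in PANDORA-seq, by position in nt, for fragments of 15 to 40 nt (top) and of 43 to 45 nt (bottom); filled points were called. At 43 to 45 nt 212 of 219 points lie below 0 and 127 are called lower, while at 15 to 40 nt 2 of 678 are called, both higher.

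At 15 to 40 nt, 0 of 678 5' ends of mt-Rnr2 were called lower in AD PANDORA-seq libraries by edgeR's quasi-likelihood test (3 at an unadjusted p under 0.05) and 2 were called higher (93 at an unadjusted p under 0.05), which is 0.295% against 0.683% higher and 0.16% lower over all 9374 positions. The median log2 fold change was 0.32 for mt-Rnr2 and 0.28 for all. The 2 positions were nt 4, with 1.31, 2.75 and 8.99 RPM in WT and 3.31, 5.50 and 91.5 RPM in AD (2.37, adjusted p = 0.0303), and nt 1147, with 1.03, 1.64 and 6.44 RPM in WT and 1.40, 3.38 and 39.9 RPM in AD (1.94, adjusted p = 0.0499). The groups overlapped at both, and neither was called without AD replicate 7 (1.30 and 1.05, adjusted p = 0.123 and 0.192).

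None of the 8 leading starts of this length was called. Position nt 1 gave 0.76 (edgeR adjusted p = 0.19), that at nt 744 -0.02 and that at nt 692 0.22. At nt 1252, 1058 and 1052 the log2 fold changes were 1.53, 1.79 and 1.67 (adjusted p = 0.14 to 0.20), with medians in WT and AD of 47.6 and 59.2, 26.6 and 47.4, and 24.4 and 50.3 RPM and highest AD values of 1108, 799 and 740 RPM, all of replicate 7. Without that library they came to 0.48, 0.69 and 0.45. Position nt 101 gave 0.19, and -0.12 without replicate 7.

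The spread of the short fragments over the rRNA was compared by 2 measures. The mean position of the 5' end was nt 717 ± 94.0 (SD, n = 8) in WT and nt 715 ± 89.8 (SD, n = 8) in AD PANDORA-seq libraries (exact permutation test, p = 0.970). The effective number of 5' ends, the exponential of the entropy of their shares, was 106 ± 32.6 in WT and 82.5 ± 23.4 in AD (exact permutation test, p = 0.126, adjusted p = 0.276), but without WT replicate 3 the difference was -32.4 (exact permutation test, p = 0.0157, adjusted p = 0.0345). In traditional-seq the mean position was nt 477 ± 188 (SD, n = 7) in WT and nt 533 ± 213 (SD, n = 7) in AD (exact permutation test, p = 0.596), and the effective number was 27.5 ± 17.9 and 27.9 ± 17.9 (exact permutation test, p = 0.968).

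Traditional-seq gave no genotype call for the rRNA. Of 132 distinct sequences and 160 5' ends of mt-Rnr2 tested, 0 were called in either direction by edgeR's quasi-likelihood test, its likelihood ratio test or DESeq2, and 1 of the 5' ends was higher at an unadjusted p under 0.05. Over all RNAs 0% of 4762 sequences and 0% of 2860 positions were called. The start at nt 963, for example, had 37.3, 118 and 357 RPM in WT and 14.2, 266 and 387 RPM in AD.

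The ends of the fragments were not evenly distributed over the bases. In PANDORA-seq, T was the base after the 3' end of 81.0% ± 5.05 (SD, n = 16) of the reads of 43 to 45 nt and of 53.3% of those of 15 to 40 nt, although T makes up 26.4% of the rRNA. With the 16 leading 3' ends left out the shares were 41.9% ± 8.19 and 45.9% ± 13.6. Before the 5' end T stood in 65.4% ± 15.9 (SD, n = 16) of the long and 49.1% ± 14.6 of the short reads. Libraries ranged from 42.4% to 94.3% and from 32.1% to 84.2%. These shares are not given without the leading 5' ends, on which they may rest. In traditional-seq, by contrast, T was most often the last base of the fragment itself (57.1% ± 10.6, n = 14), a share that rested on the leading ends: without the 8 leading 3' ends it was 15.9%, and C was the last base in 48.2%.

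The mature ends of the rRNA were read to very different extents. Reads of any length that started at nt 1 had a lowest, median and highest level of 224, 447 and 1132 RPM in WT and 408, 537 and 820 RPM in AD PANDORA-seq libraries, whereas reads ending at the last nucleotide averaged 2.67 RPM in WT and 2.36 in AD, and 4.54 and 5.04 RPM in traditional-seq. Reads that ran across the 5' end from mt-Tv averaged 1.996 RPM in WT and 1.28 in AD PANDORA-seq libraries and 0.054 and 0.093 in traditional-seq. Reads that ran across the 3' end into mt-Tl1 averaged 0.271 and 0.351 RPM, and reads with at least 2 A added after the last nucleotide 0.240 and 0.435 RPM, in PANDORA-seq. Reads across either junction were thus rare beside reads that started at nt 1.

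The other 36 genes of the mitochondrial genome were read from the same fit. At 43 to 45 nt 33 of the 36 passed the filter and 29 were called lower in AD mice, against 62.4% of all RNAs tested at this length, with a median log2 fold change of -1.81 (from -4.08 to 0.17), and mt-Rnr2 ranked 17 from the lowest. The 12S rRNA mt-Rnr1, the small-subunit rRNA, gave -1.45 (edgeR adjusted p = 0.032), and the flanking tRNAs mt-Tv and mt-Tl1 gave -2.06 (adjusted p = 0.0028) and -1.57 (adjusted p = 0.037). At 15 to 40 nt 0 of the 36 were called by edgeR's quasi-likelihood test, the median was 0.34 (from -0.06 to 1.41), and mt-Rnr2 with 0.92 (0.39 without AD replicate 7) ranked 36 from the lowest. In traditional-seq 0 of 36 were called, with a median of 0.07.

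The levels of mt-Rnr2 followed those of other RNAs, most of them mitochondrial, from library to library. Over the 16 PANDORA-seq libraries, the log2 level of its fragments of 15 to 40 nt was most alike that of mt-Rnr1 (Pearson r = 0.96), mt-Co1 (0.95), mt-Nd4 (0.94), Gm24523 (0.92) and mt-Nd1 (0.92) among 324 RNAs. At 43 to 45 nt it was most alike mt-Co1 (0.97), mt-Cytb (0.97), mt-Rnr1 (0.96), mt-Nd4 (0.95) and mt-Co3 (0.94) among 55 RNAs. These values come from the same libraries and share their depth and length profile, so they are a description. They include AD replicate 7, which was extreme for mt-Rnr2 at 15 to 40 nt (12421 RPM), and are not given without it.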

How the data were processed

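TRIzol RNA was size-selected at 15 to 50 nt by urea-PAGE by the authors. The deposited files list each distinct read sequence of a library with its raw count of reads. The labels name the build mm39, and the study's own annotation used SPORTS1.1 with 1 mismatch, which was not used here. Sequences were matched exactly and in sense to 6125 GENCODE M21 transcripts (GRCm38), comprising mitochondrial, rRNA and small non-coding RNAs. Of the mt-Rnr2 reads, 0.391% in PANDORA-seq and 1.40% in traditional-seq also matched another transcript of the whole GENCODE M21 set or recurred within mt-Rnr2. Nuclear copies of the rRNA were not searched, since a genome was not used here.

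Counts were summed per distinct sequence, per 5' end and length class, and per RNA and length class, and tested over the whole table with edgeR 4.0.16 (quasi-likelihood test, TMM, R 4.3.3), with features filtered at a count of 10 and a total of 15 and Benjamini-Hochberg adjustment. A call needed more than a 2-fold difference with an adjusted p below 0.05. DESeq2 1.42.0, the likelihood ratio test and other scalings were alternatives, and the code was tested on simulated data. Some fragments are not reported here. Single measures were compared by two-sided exact permutation tests. PCR reads carry no molecular identifiers. The hot spots named are the leading 5' ends by mean share, at least 5 nt apart, 8 for 15 to 40 nt and 6 for 43 to 45 nt, and the members and lists were chosen with earlier results of these data known.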

Additional observations from a re-analysis of the deposited data

Results flagged for a closer look

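A library was noted when it lay far from the nearest other library of its group relative to the range of that group (Dixon's test). Of 70 groups of values tested, 11 had such a library, where chance gives about 1 in 20, and 10 of the 11 were PANDORA-seq AD replicate 7, so they are not independent of each other. It held 12421 RPM of mt-Rnr2 at 15 to 40 nt (the next AD library had 3815) and 5125 RPM at 41 to 42 nt (next 853), and mt-Rnr2 was 2.74% of its reads of 43 to 45 nt (next 0.879%). At 15 to 40 nt it was highest at the starts nt 101 (135 RPM, next 69.1), nt 1052 (740, next 104), nt 1058 (799, next 147) and nt 1252 (1108, next 232). At 43 to 45 nt it was the highest AD library at nt 686 (215 RPM, next 57.9), nt 1330 (107, next 26.1) and nt 1400 (73.6, next 14.4). WT replicates 1 and 2 lay above it at nt 686 (333 and 270 RPM) and nt 1330 (124 and 123 RPM). The remaining library was WT replicate 6, with 579 RPM of long fragments starting at nt 98 (next 314).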

How the results depend on the processing

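Of 589 alternative values, 503 were labelled the same as the main value. For a difference this meant the same direction and side of the threshold. For a count of calls it meant equal to the main count or within a set factor of it. Divided by all reads of the length class, the lower level of long mt-Rnr2 reads was no longer past the threshold (difference in log2 RPM -0.39, p = 0.365, exact permutation test; edgeR log2 fold change -0.15, adjusted p = 0.934), and distinct sequences called lower fell from 158 to 60 (34 by exact length, an alternative chosen after seeing the data), positions called lower from 130 to 34, and positions called higher rose from 2 to 4. The looser filter gave 470 and 249 lower and 42 and 11 higher, and between protocols 757 higher and 148 lower. Higher sequences (3) numbered 34 with the likelihood ratio test, 26 with DESeq2, 0 by library size, 9 without sequences shared with other transcripts, 5 by exact length and 0 over all distinct sequences. Higher positions (2) numbered 22, 9, 1 with DESeq2 size factors and 0 by library size. Per reads matched to the listed transcripts, mt-Rnr2 as a percentage of the reads of 43 to 45 nt was higher in AD by 2.29 points (p = 0.686, exact permutation test). The protocol value of 1.37 was 0.24 by library size, 0.50 by length class and 0.90 without AD replicate 7. Signs turned for the starts nt 744 (0.0310) and nt 101 (-0.12) without AD replicate 7, nt 692 (-0.17) and nt 101 (-0.0942) by length class at 15 to 40 nt, nt 686 (1.43) and nt 1330 (1.57) by length class, and nt 1400 (-0.11) at 43 to 45 nt and the reads of 41 to 42 nt (-0.24) without AD replicate 7. Leaving out each library in turn gave -28.4 to 18.3 for the mean 5' end and -32.4 (without WT replicate 3, p = 0.0157, exact permutation test) to -17.0 for the effective number of 5' ends in PANDORA-seq, -5.36 to 5.56 for the latter and -0.0715 to 0.14 for log2 RPM in traditional-seq, -0.36 (without AD replicate 7, p = 0.048, exact permutation test) to -0.00121 for mt-Rnr2 as a percentage of all reads of 43 to 45 nt, 1 to 16 higher sequences, 0 to 15 higher positions and 0.90 to 1.42 for the protocol value.

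The labels number samples within each group, and these numbers did not pair the samples: same-numbered deviations correlated from -0.476 to 0.242 in 8 PANDORA-seq pairs and from -0.476 to 0.483 in 7 traditional-seq pairs. With the replicate number as a block, 162 sequences and 135 positions were lower and 0 and 0 higher, the long mt-Rnr2 reads gave -2.02 (edgeR adjusted p = 0.0053), and the effective number of 5' ends differed by -23.1 (p = 0.0391, exact permutation test). In traditional-seq, whose libraries were shallower, 132 mt-Rnr2 sequences passed the count filter, against 2055 in PANDORA-seq, and the part of depth in this was not tested.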
